A study of Rattus norvegicus with 4 samples.

Results

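Claudins, occludin, tricellulin and junctional adhesion molecule A build the tight junction, and Epcam is a surface protein of epithelial cells. Counts of 10 of these genes were followed through the cell classes of the adult rat pituitary: Epcam, the claudin genes Cldn1, Cldn3, Cldn4, Cldn5, Cldn7 and Cldn10, the occludin gene Ocln, the tricellulin gene Marveld2, and F11r, which encodes junctional adhesion molecule A. They were taken by symbol from the 32883 genes of the deposited matrix, and each of the 10 symbols matched 1 gene. The cells came from female Sprague Dawley rats of 75 days in random stages of the estrous cycle, and no treatment or mutation was part of the design. Glands were dispersed with trypsin and EDTA and sequenced with the 10x Chromium 3′ kit, version 3. From 1 pool of 30 glands the anterior and the posterior lobes were separated and made into a library each. A suspension of 30 whole glands was split over 2 lanes, which repeat it technically. The replicates are therefore 2 preparations, dissected and whole. The p-values below rest on how class levels vary between these once the mean difference between preparations is removed. That spread is estimated over all classes of the fit together.

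Claudins are membrane proteins with 4 transmembrane segments that seal the gap between neighboring cells or form pores in that seal, and the set of claudins a cell makes sets which ions pass. Occludin and tricellulin belong to the MARVEL proteins of the same strands, tricellulin at the corners where several cells meet, and junctional adhesion molecule A is an immunoglobulin-like protein that takes part in their assembly. Epcam binds claudin-7 in epithelia and stabilizes it. In the pituitary, hormone cells and the non-endocrine folliculostellate cells of the anterior lobe descend from an oral epithelium, whereas pituicytes, the glia of the posterior lobe, descend from the neural floor of the brain, and the capillaries of both lobes are fenestrated.

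The promoters of 4 of these genes are shown because their RNA fell into contrasting patterns across the classes: Epcam, Cldn3 and Cldn7 were far lower in pituicyte- than in folliculostellate-like cells, whereas Cldn10 was at its highest in pituicyte-like cells. Each sequence covers the 250 bases before the annotated start in RefSeq (build GRCr8), 5′ to 3′ on the strand of the gene. Capitals mark the E2 box CACCTG and the GC box GGGCGG, searched on both strands, which did not overlap each other here. The windows are Epcam, chr6:12649679-12649928 on the minus strand, Cldn3, chr12:27346548-27346797 on the minus strand, Cldn7, chr10:55188420-55188669 on the plus strand, and Cldn10, chr15:102269608-102269857 on the plus strand.
Epcam: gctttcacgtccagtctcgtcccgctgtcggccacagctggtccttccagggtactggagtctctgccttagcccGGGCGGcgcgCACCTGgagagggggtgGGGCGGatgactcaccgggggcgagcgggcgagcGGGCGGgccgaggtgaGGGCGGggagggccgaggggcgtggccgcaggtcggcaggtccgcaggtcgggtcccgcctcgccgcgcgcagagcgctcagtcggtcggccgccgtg
Cldn3: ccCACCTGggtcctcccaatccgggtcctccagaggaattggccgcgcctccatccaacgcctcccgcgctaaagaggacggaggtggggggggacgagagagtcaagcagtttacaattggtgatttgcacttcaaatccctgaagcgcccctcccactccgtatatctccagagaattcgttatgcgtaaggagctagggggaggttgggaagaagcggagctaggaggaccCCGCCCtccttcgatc
Cldn7: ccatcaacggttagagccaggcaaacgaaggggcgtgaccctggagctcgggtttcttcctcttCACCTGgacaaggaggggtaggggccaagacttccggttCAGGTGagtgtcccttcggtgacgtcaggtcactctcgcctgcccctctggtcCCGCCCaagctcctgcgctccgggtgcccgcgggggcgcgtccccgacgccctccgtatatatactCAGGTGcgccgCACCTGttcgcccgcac
Cldn10: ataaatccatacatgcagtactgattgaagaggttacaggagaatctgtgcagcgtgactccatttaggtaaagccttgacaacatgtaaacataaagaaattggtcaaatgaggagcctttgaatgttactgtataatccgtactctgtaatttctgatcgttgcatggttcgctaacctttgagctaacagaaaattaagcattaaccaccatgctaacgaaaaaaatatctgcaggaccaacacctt
The window of Epcam held 1 E2 box and 4 GC boxes at a GC content of 75.6%. That of Cldn3 held 1 of each at 59.2%, and that of Cldn7 held 4 E2 boxes and 1 GC box at 65.6%. The window of Cldn10 held neither motif, at a GC content of 38.0%. Of 33469 rat promoter windows of the same length, 15.9% held an E2 box and 30.5% a GC box, and their median GC content was 51.2%. Of the 9 members with an entry in the promoter table, 5 held an E2 box (Cldn3, Cldn7, Ocln, Epcam and F11r) and 6 a GC box. Cldn4 had no entry there. These matches are descriptions of letters in a window.

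Of 32455 barcodes, 19793 passed the filters as cells, with medians of 9556 to 10604 unique molecular identifiers (UMIs) per cell in the 4 libraries, whose totals ran between 61981865 and 72754998 UMIs. Cells were clustered and named from lists of markers, and names keep the ending "-like". Folliculostellate-like cells (2865 cells, with S100b and Sox2) and 5 hormone classes (lactotroph-, somatotroph-, corticotroph-, gonadotroph- and thyrotroph-like) were found in all libraries. Of 1201 pituicyte-like cells, 1103 lay in the posterior library, as did 519 of 632 melanotroph-like cells, the endocrine cells of the intermediate lobe. Levels are CPM, the UMIs of a gene per 1000000 UMIs of its class. A 3′ kit counts molecule ends, so a level does not depend on transcript length. Whole-gland levels are sums of both lanes. Dissected levels come from the anterior library for folliculostellate-like and hormone cells, from the posterior library for pituicyte- and melanotroph-like cells, and from both for the other classes. Between libraries, 89 barcode sequences recurred, 32 of them among the cells kept. RNA of Prl and Gh1, the prolactin and growth hormone genes, was also found in classes that do not make these hormones. Together these 2 genes made up 46307 CPM of anterior and 43166 CPM of whole-gland folliculostellate-like cells. They were uneven within that class: a sub-cluster of 232 cells, described below, held 148202 CPM, against between 6125 and 17541 CPM in the other sub-clusters. In pituicyte-like cells Prl and Gh1 made up 6094 CPM in the posterior library and 40585 CPM in whole glands. Whether this RNA came from broken hormone cells was not tested.

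**Figure D1:**
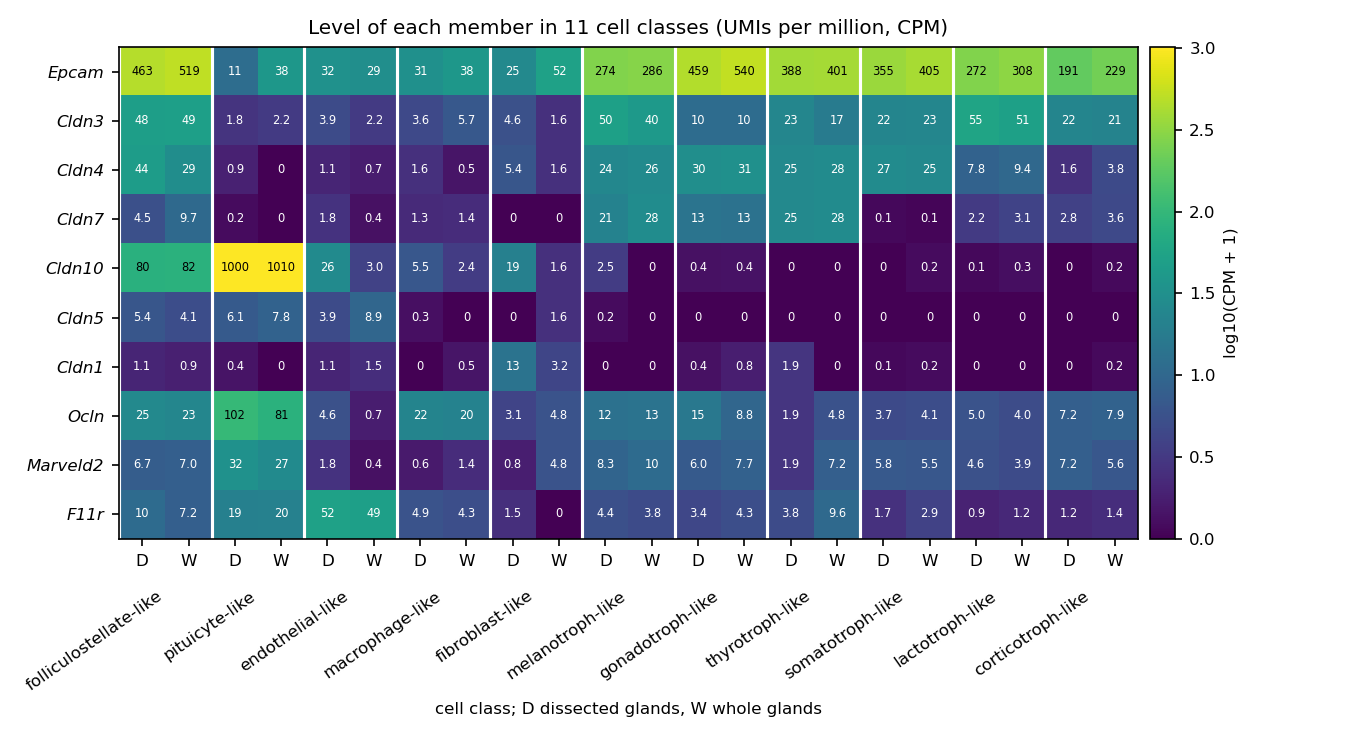
Level of the 10 members (rows) in 11 cell classes (columns), with dissected (D) and whole (W) glands side by side and the CPM printed in each cell; color is log10(CPM + 1). Epcam was above 190 CPM in folliculostellate-like cells and in the 6 endocrine classes, whereas Cldn10 stood at 1000 and 1010 CPM in pituicyte-like cells.

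Folliculostellate-like cells carried more Cldn10, Cldn5, Ocln, F11r and Cldn4 RNA than the mean of the 5 hormone classes, while their Epcam level did not differ detectably from that mean. Single hormone classes could be higher. In whole glands Cldn4 stood at 28.9 CPM in folliculostellate- and 30.8 CPM in gonadotroph-like cells. F11r stood there at 7.15 CPM in folliculostellate- and 9.58 CPM, from 8 UMIs, in thyrotroph-like cells. The Cldn4 call was lost without a sub-cluster rich in hormone RNA, at 0.68 on the log2 scale, and with doublets kept, at 0.91. Against pituicyte-like cells, folliculostellate-like cells had far more Epcam, Cldn3, Cldn4 and Cldn7 and less Cldn10, Ocln, Marveld2 and F11r. In the edgeR quasi-likelihood fit over 14716 genes, calls needed a p under 0.05 after Benjamini-Hochberg adjustment and a log2 fold change of at least 1 in size. Cldn1 did not pass the low-count filter, which left 9 of the 10 members tested. Against the mean of the 5 hormone classes, 5 of 9 were called higher and 0 lower in folliculostellate-like cells, where 34.5% of all genes tested were called, 22.7% higher and 11.7% lower. Cldn3 and Cldn7 passed the adjusted p but not the size limit, at 0.88 each, and Epcam and Marveld2 passed neither. With anterior and posterior cells summed in the dissected preparation, 8 of 10 members were called higher, Cldn3 and Cldn7 among them at 1.13 and 1.5. The share of all genes called under that setting is not given here. Against pituicyte-like cells, 4 members were called higher and 4 lower in folliculostellate-like cells, where 29.9% of all genes were called. Melanotroph-like cells had 6 of 9 members higher and 0 lower than the 5 hormone classes, against 15.1% of all genes called, 9.64% higher and 5.46% lower. Only 3 of these 6, Cldn3, Cldn7 and Ocln, were called without the anterior library or with dissected sums over both libraries. Endothelial-like cells had 3 of 9 members higher and 5 lower than the mean of the other classes, against 38.6% of all genes called. Among the 5 hormone classes themselves, 6 of 9 members differed, against 47.4% of all genes.

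**Figure D2:**
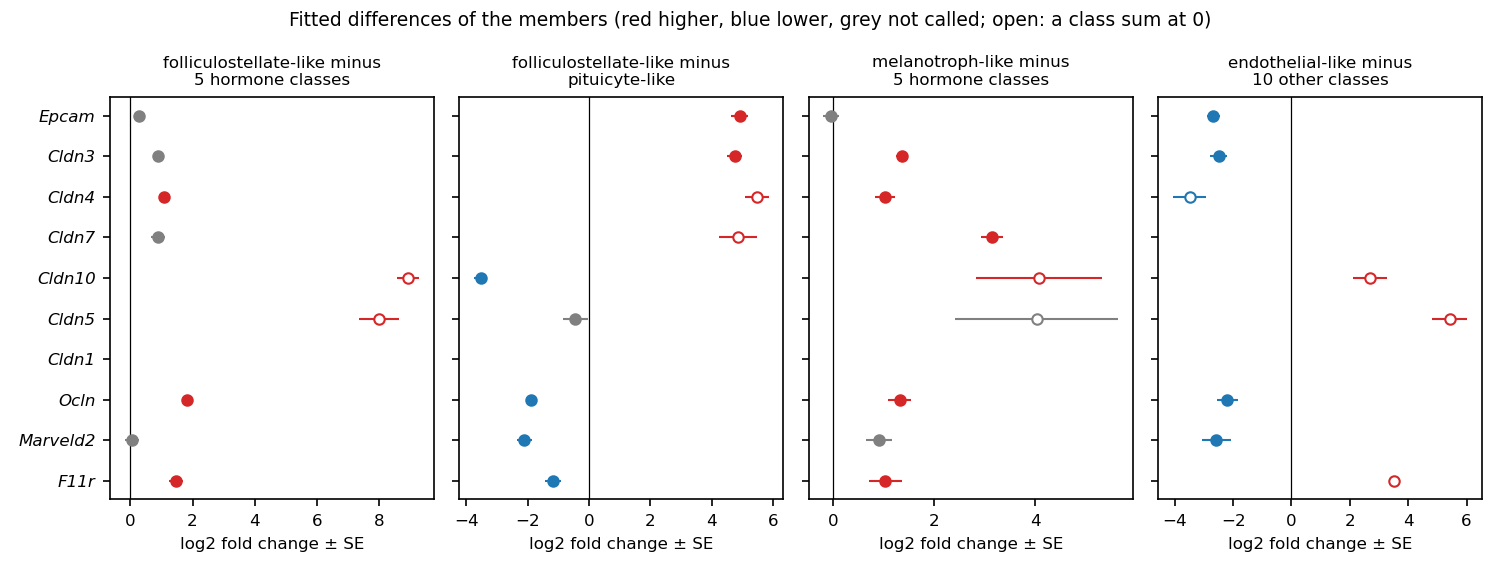
Fitted log2 fold change of each member with its SE in 4 comparisons, named above each panel; red is called higher, blue called lower and grey not called, and open circles mark genes with a class sum at 0 UMIs, whose fold depends on the prior count. Cldn1 was not tested, and Cldn7 in endothelial-like cells is not drawn because its SE was not usable. Epcam, Cldn3, Cldn4 and Cldn7 lay to the right of 0 and Cldn10, Ocln, Marveld2 and F11r to the left in the comparison of folliculostellate-like with pituicyte-like cells.

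Epcam was the most abundant member in all classes descended from the oral epithelium. It stood at 463 CPM in anterior, 705 CPM in posterior and 519 CPM in each lane of whole-gland folliculostellate-like cells. In dissected and whole glands it stood at 459 and 540 CPM in gonadotroph-, 388 and 401 CPM in thyrotroph-, 355 and 405 CPM in somatotroph-, 272 and 308 CPM in lactotroph- and 191 and 229 CPM in corticotroph-like cells. Melanotroph-like cells had 274 and 286 CPM. These CPM are shares of all UMIs of a class, hormone RNA included. Prl and Gh1 alone filled 480957 and 506709 CPM of anterior and whole-gland lactotroph-like cells, and 329830 and 341441 CPM of somatotroph-like cells. The CPM of every other gene are lowered there, so the order of classes by CPM need not hold outside hormone RNA. The folliculostellate-like levels overlapped the gonadotroph-like levels apart from the posterior library, which was higher, and corticotroph-like cells had the least in both preparations. The log2 difference between folliculostellate-like and hormone cells was 0.28 (SE 0.15, edgeR quasi-likelihood adjusted p = 0.110), and melanotroph-like cells differed from hormone cells by -0.04 (SE 0.16, adjusted p = 0.931 in the same test). Among hormone classes Epcam differed, with 1.45 on the log2 scale between the highest and the lowest class mean.

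Epcam was scarce outside these classes. Pituicyte-like cells held 10.9 CPM in the posterior library and 37.8 CPM in whole glands, where their Prl and Gh1 RNA was also higher, as given above. Endothelial-like cells held 32.3 and 29.2 CPM in dissected and whole glands. The folliculostellate-like excess over pituicyte-like cells was 4.91 on the log2 scale (SE 0.27, edgeR quasi-likelihood adjusted p = 6.52e-14), or 37.3-fold for pooled UMIs (95% counting interval 31.4 to 44.7), which covers counting error only. The ratio was 42.5 in dissected glands and 13.7 in whole glands (9.82 to 19.8). The part of free hormone-cell RNA in the low levels was not tested. After each whole-gland cell was thinned to 2000 UMIs, an Epcam UMI was found in 27.4% of folliculostellate-like and 61.6% of gonadotroph-like cells, against 2.41% of endothelial-like and 6.74% of pituicyte-like cells. Without thinning the shares were 40.0% and 92.2%, against 8.86% and 10.2%, at median depths of 5948, 12114, 7514 and 8864 UMIs. Whole-gland folliculostellate-like and gonadotroph-like cells, at 519 and 540 CPM, were thus closer in mean Epcam level than in the share of cells in which it was found.

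Epcam was also spread unevenly among folliculostellate-like cells. Sub-clustering of the 2865 cells, without the 10 members and other junction genes, gave 5 sub-clusters. Among them 456 cells led by Chia, Edn2, Krt17 and Sfn, called the Krt17 sub-cluster here, made up 15.9% of the cells of the class and 30.1% of its total UMIs and held 62.3% of its Epcam UMIs. The share was 70.7% for Cldn3, 77.3% for Cldn4, 65.2% for Cldn7 and 77.3% for F11r, against 50.3% for Ocln and, near the share of total UMIs, 31.6% for Cldn10. The sub-clusters come from these same cells, so the values are a description with no test.

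In the Krt17 sub-cluster Epcam stood at 980 CPM in the anterior and 1100 CPM in the posterior library, and at 1170 and 1130 CPM in lanes 1 and 2. In the largest sub-cluster, 1253 cells led by chemokine and interferon response genes such as Cxcl10 and Irf1, it stood at 86.6, 67.5, 81.1 and 59.5 CPM in the same order of libraries. The 4 libraries of the 2 sub-clusters do not overlap, and the ratio of the pooled levels was 14.4. Cldn3, a sealing claudin, had 145 CPM over all libraries of the Krt17 sub-cluster, against 2.39 CPM in the Cxcl10 sub-cluster. Cldn4 had 157 against 2.28 CPM and Cldn7 24.2 against 0.228 CPM, the last of these from 2 UMIs. F11r had 30.7 against 1.37 CPM, and Ocln 43.5 against 12.9 CPM. Cldn10 did not follow them, with 84.5 CPM in the Krt17 sub-cluster, 81.4 CPM in the Cxcl10 sub-cluster and 107 CPM in another sub-cluster of 748 cells with Hes5. Keratin and cadherin genes of epithelia were also high in the Krt17 sub-cluster: Krt18 stood at 1420 against 82.7 CPM, Krt8 at 648 against 151 CPM and Cdh1, the E-cadherin gene, at 75.8 against 5.59 CPM in the Cxcl10 sub-cluster.

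A further sub-cluster of 232 cells was led by genes of endocrine cells, such as Chga, Scg2 and Chgb, and held 148202 CPM of Prl and Gh1 together. Its median was 20327.5 UMIs per cell, against between 1860 and 11189 UMIs in the other sub-clusters. Whether doublets remained among these cells was not tested. The sub-cluster had 671 CPM of Epcam and 68.0 CPM of Cldn3. In the anterior library its Cldn4 level, 90.8 CPM, lay above that of the Krt17 sub-cluster, 72.9 CPM. Its cells were 8.10% of the class, with 22.4% of its total UMIs, and held 28.4% of the Epcam UMIs, against 4.55% in the Cxcl10, 4.05% in the Hes5 and 0.697% in the remaining sub-cluster. The hormone-rich sub-cluster had Cldn10 at 52.4 CPM, against at most 0.393 CPM in any hormone class of the fit. The fifth sub-cluster was 176 cells with a median of 1860 UMIs and pituicyte genes (Rax, Igfbp2), with Cldn10 at 140 CPM.

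**Figure D3:**
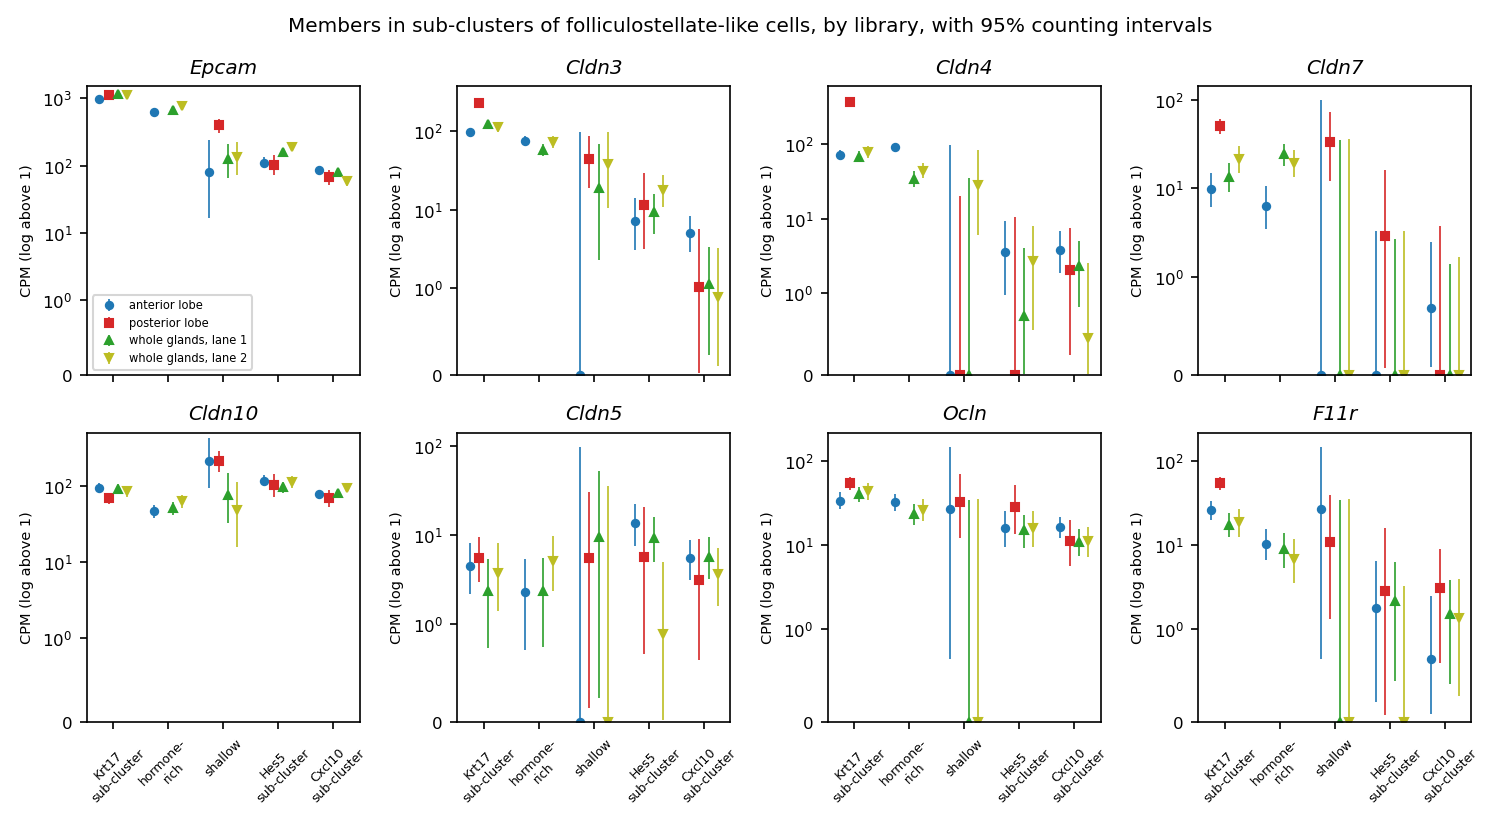
CPM of 8 members in the 5 sub-clusters of folliculostellate-like cells, by library (points with 95% counting intervals; log axis above 1 CPM, linear below; sums of fewer than 20 cells not drawn). Epcam and Cldn3 were highest in the Krt17 sub-cluster in each library, and Cldn4, Cldn7 and F11r were highest in its posterior cells, whereas Cldn10 had no such peak.

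Folliculostellate-like cells with a Cldn4 UMI mostly held Epcam RNA as well. After thinning to 2000 UMIs and without the hormone-rich cells, 44 of 49 folliculostellate-like cells with a Cldn4 UMI had an Epcam UMI in dissected glands, here anterior and posterior cells together, or 89.8%, against 25.6% of the 969 cells without Cldn4. In whole glands the shares were 88.5% of 26 cells and 23.1% of 1398 cells. For Cldn10 the shares with an Epcam UMI were 31.0% with and 28.3% without a Cldn10 UMI in dissected glands, and 20.7% and 25% in whole glands. These shares are over cells of 2 preparations, and no test was made across cells.

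Within the posterior library the Krt17 sub-cluster had the highest Cldn3, Cldn4, Cldn7 and F11r levels of any library. Cldn4, a claudin of tight epithelia, stood at 373 CPM in its 93 posterior cells, against 72.9 CPM in 136 anterior cells, 68.2 CPM in lane 1 and 79.2 CPM in lane 2. Of the 875 posterior Cldn4 UMIs, 5 cells held 68.7%, the first of them 258 UMIs, and without these 5 cells the level was 152 CPM. Without their own top 5 cells, anterior cells and lanes 1 and 2 stood at 54.2, 52.5 and 41.3 CPM. Cldn3 stood at 232 CPM in posterior cells and 96.6, 125 and 114 CPM in the other 3 libraries, and Cldn7 at 49.9 CPM against 9.84, 13.5 and 21.2 CPM. For Cldn7, 5 posterior cells held 62.4% of the UMIs, and the level without them was 23.1 CPM. With the top 5 cells of each left out, anterior cells and lanes 1 and 2 stood at 4.69, 7.36 and 5.01 CPM. Epcam was alike, between 980 and 1170 CPM. There is 1 library of each lobe, so these differences were not tested.

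Cldn3, Cldn4 and Cldn7 each marked a different set of hormone classes. Cldn3 was highest in lactotroph-like cells, which make prolactin, at 55.1 and 50.7 CPM in dissected and whole glands, and lowest in gonadotroph-like cells at 10.5 and 10.4 CPM. Cldn4 ran the other way, with 29.7 and 30.8 CPM in gonadotroph-, 24.8 and 27.5 CPM in thyrotroph- and 27 and 25 CPM in somatotroph-like cells. It had 7.78 and 9.45 CPM in lactotroph- and 1.60 and 3.78 CPM in corticotroph-like cells, so that Cldn3 and Cldn4 had opposite orders in lactotroph- and gonadotroph-like cells. In CPM of all UMIs, both gonadotroph-like levels of Cldn4 lay above the thyrotroph- and somatotroph-like ones, which overlap each other. Prl and Gh1 filled 329830 and 341441 CPM of anterior and whole-gland somatotroph-like cells, against 64208 and 75647 CPM of gonadotroph-like cells. No test was made between these 3 classes.

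Cldn7, the claudin known to bind Epcam, stood at 24.8 and 27.5 CPM in thyrotroph- and 13.2 and 12.6 CPM in gonadotroph-like cells. It was nearly missing from somatotroph-like cells, at 0.147 and 0.112 CPM, from 2 and 3 UMIs, although these had 355 and 405 CPM of Epcam. Each of the 3 claudins differed among the hormone classes, with log2 differences between the highest and lowest class mean of 3.21 for Cldn3, 3.43 for Cldn4 and 7.06 for Cldn7 (edgeR quasi-likelihood adjusted p = 1.29e-15, 3.32e-09 and 6.40e-11). The other 3 members that differed there were Epcam, Ocln and F11r. Without the anterior library, 4 of the 6 were called, Ocln and F11r not being among them.

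Melanotroph-like cells held all 3 of these claudins, a trait shared with thyrotroph- and gonadotroph-like cells. For thyrotroph-like cells Cldn3 stood at 22.9 and 16.8 CPM in dissected and whole glands, from 12 and 14 UMIs. The other levels of these 2 hormone classes are given above. Melanotroph-like cells had 50.5 CPM of Cldn3 in the posterior library and 40.3 CPM in whole glands. They had 23.7 and 26.2 CPM of Cldn4, and 20.7 and 28.2 CPM of Cldn7. The mean of the 5 hormone classes in dissected and whole glands was 26.6 and 24.4 CPM for Cldn3, 18.2 and 19.3 CPM for Cldn4, and 8.63 and 9.38 CPM for Cldn7. The fit rescales the sums (TMM) and averages class logs, so its differences need not match ratios of these CPM. The fitted log2 differences were 1.36 (SE 0.12) for Cldn3, 1.02 (SE 0.20) for Cldn4 and 3.14 (SE 0.22) for Cldn7. Single hormone classes reached or exceeded the melanotroph-like CPM. Cldn3 was higher in lactotroph-like cells in both preparations, Cldn4 was higher in gonadotroph-like cells, and the Cldn7 levels of thyrotroph-like cells overlapped those of melanotroph-like cells. Ocln was called higher by 1.32 (SE 0.23) and F11r by 1.03 (SE 0.33).

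Cldn10 was also called in melanotroph-like cells, but from 22 UMIs in the posterior library (2.46 CPM) and 0 in whole glands, where the limit that a count of 0 allows was 1.92 CPM. Lactotroph-like cells of the same posterior library held 3.41 CPM and those of the anterior library 0.146 CPM. Without the posterior library the fitted difference reversed to -3.09, with 0 UMIs behind it. With hormone cells taken from the posterior library in place of the anterior one, only 3 members were called in melanotroph-like cells: Cldn3, Cldn7 and Ocln.

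**Figure D4:**
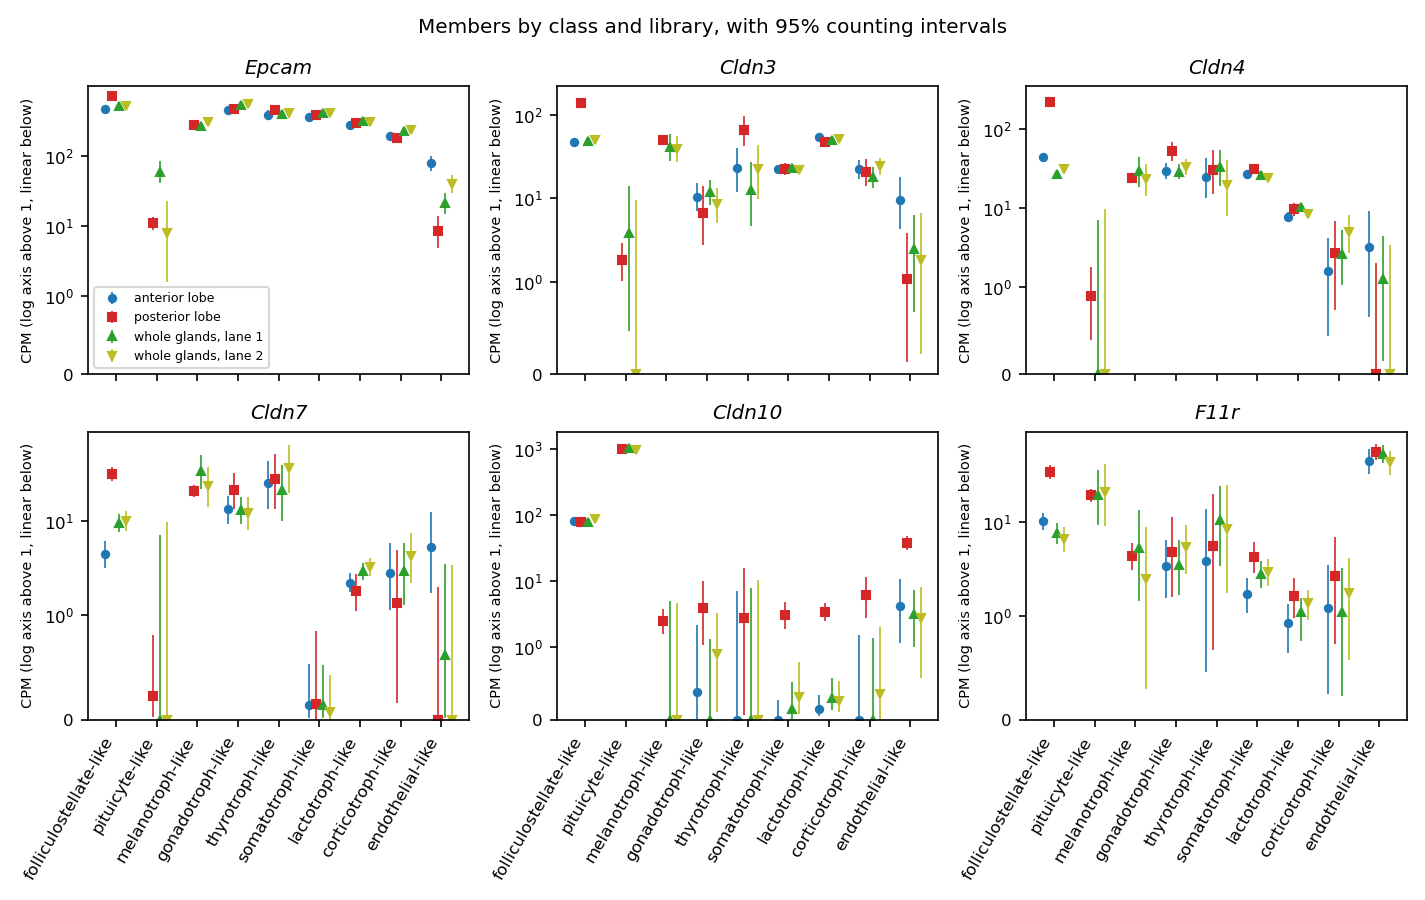
CPM of 6 members in 9 cell classes by library (points with 95% counting intervals; log axis above 1 CPM, linear below; sums of fewer than 20 cells not drawn). Cldn10 was near 1000 CPM in pituicyte-like cells of all 3 libraries drawn, and in every hormone class its posterior point lay above the anterior and whole-gland points. Posterior folliculostellate-like cells lay above the other libraries for Cldn3, Cldn4, Cldn7 and F11r.

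Cldn10, which forms ion pores rather than a seal, was the claudin of the glia-like classes. Pituicyte-like cells held 1000 CPM in the posterior library (counting interval 983 to 1020) and 1010 CPM in whole glands (942 to 1070), and a Cldn10 UMI was found in 80.3% and 79.8% of cells thinned to 2000 UMIs. Folliculostellate-like cells held 79.6 CPM in the anterior, 77.5 CPM in the posterior library and 77.9 and 86.5 CPM in the whole-gland lanes, with 15.4% of thinned whole-gland cells positive, against 0.0580% of lactotroph-like cells. The 4 libraries of folliculostellate-like cells thus lay close together, and their pooled level was 0.0807 of that in pituicyte-like cells (counting interval 0.0768 to 0.0847).

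In pooled UMIs the Cldn10 level of folliculostellate-like cells was 389-fold that of hormone cells (counting interval 273 to 574, 1925 against 31 UMIs). The ratio was 711 in dissected glands and 311 in whole glands, and in the posterior library the log2 ratio to the mean of the hormone classes was 4.34. Against pituicyte-like cells it was lower (log2 fold change -3.53, SE 0.21, edgeR quasi-likelihood adjusted p = 9.81e-13). All 5 hormone classes had between 0 and 0.393 CPM in the sums of the fit, yet between 2.77 and 6.03 CPM in the posterior library. In the posterior library endothelial-like cells had 37.5 CPM and fibroblast-like cells 23.9 CPM, against 4.20 and 3.41 CPM in the anterior library. These posterior values moved together with the abundance of pituicyte-like cells in that library, and the part of free pituicyte RNA in them was not tested.

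Cldn5, known as the main claudin of brain endothelium, was low in every class of the fit. In endothelial-like cells it had 11 UMIs, or 3.90 CPM, in dissected and 24 UMIs, or 8.88 CPM, in whole glands, in 17 of 603 cells. Folliculostellate-like cells had 5.40 and 4.13 CPM and pituicyte-like cells 6.07 and 7.78 CPM, so the 3 classes overlap. Hormone cells had 0 UMIs in all 10 sums of the fit, and 1 UMI in posterior lactotroph-like cells. Folliculostellate-like cells, with 109 UMIs, were at least 227-fold higher than hormone cells, taking 3 counts over the 5 classes as the limit that a count of 0 allows. They did not differ detectably from pituicyte-like cells, at -0.45 on the log2 scale (SE 0.40, edgeR quasi-likelihood adjusted p = 0.370).

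Endothelial-like cells were called higher than the mean of the other classes for Cldn5, a mean that included the 5 hormone classes at 0 UMIs. In pooled UMIs the ratio to all other classes was 3.19 in dissected glands (counting interval 1.55 to 5.96) and 14.5 in whole glands (8.70 to 23.2). DESeq2 did not call it (5.01, SE 2.50). Other junction genes of endothelium were high in these cells: Cdh5, the cadherin of endothelium, stood at 422 and 447 CPM in dissected and whole glands, against class means of 0.826 and 0.761 CPM, and Esam at 392 and 328 CPM, against 4.83 and 9.10 CPM. The class joins clusters of 336 and 267 cells. The smaller one also held 2721 CPM of the pericyte marker Rgs5 and 1221 CPM of the fibroblast marker Dcn, against 504 and 170 CPM in the larger one. The part of pericyte or fibroblast RNA in the class was not tested.

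F11r was the member that set endothelial-like cells apart from the other classes of the fit. It stood at 45.1 CPM in the anterior and 55.7 CPM in the posterior library and at 53.2 and 43.3 CPM in lanes 1 and 2, above every other class of the fit in every library. The log2 difference from the other classes was 3.52 (SE 0.19, edgeR quasi-likelihood adjusted p = 9.52e-15), or 14.3-fold for pooled UMIs (counting interval 12.4 to 16.4). Folliculostellate-like cells had 10.2 CPM in the anterior, 34.1 CPM in the posterior library and 7.15 CPM in whole glands, and pituicyte-like cells had 19.3 CPM in the posterior library and 20 CPM in whole glands. The order of these classes was thus turned between the posterior library and whole glands. Of the 135 F11r UMIs of posterior folliculostellate-like cells, 129 lay in the Krt17 sub-cluster, where 5 of 93 cells held 46.5% of them. The posterior level of this sub-cluster lay near the endothelial-like 55.7 CPM of the same library. Without these 5 cells it was 38.0 CPM. Folliculostellate-like cells exceeded the mean of the hormone classes by 1.48 (SE 0.22), against class means of 2.21 and 3.89 CPM. Thyrotroph-like cells of whole glands, at 9.58 CPM from 8 UMIs, lay above them. Against pituicyte-like cells, folliculostellate-like cells were called lower (log2 fold change -1.17, SE 0.26). In pooled UMIs the ratio was 0.528 in dissected glands (counting interval 0.403 to 0.687) and 0.358 in whole glands (0.216 to 0.626). With posterior in place of anterior folliculostellate-like cells the fitted difference was 0.01, so the call depended on which dissected library was used.

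Other members were scarce in endothelial-like cells. The log2 fold change was -2.68 (SE 0.21) for Epcam, -2.50 (SE 0.29) for Cldn3, -2.19 (SE 0.36) for Ocln and -2.58 (SE 0.49) for Marveld2, all called lower, with 15 UMIs of Ocln and 6 of Marveld2 in all 603 cells. Cldn4, called lower at -3.49 (SE 0.58), had 5 UMIs, and its call was lost without the posterior library. Cldn7 had 6 UMIs, against 842 in the other classes, a ratio of 0.258 (counting interval 0.0944 to 0.564), and its fitted difference had no usable SE. Cldn10 was called higher by 2.69 (SE 0.60) over the mean of class logs. Its pooled UMIs ran the other way, with a ratio of 0.25 (counting interval 0.199 to 0.311), since pituicyte- and folliculostellate-like cells held most of them, and the call was lost without either dissected library, at 1.30 without the anterior and 1.62 without the posterior one.

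Ocln and Marveld2, the genes of the MARVEL proteins, were both highest in pituicyte-like cells, although these had hardly any Epcam, Cldn3, Cldn4 or Cldn7. Ocln had 102 CPM in the posterior library and 81.1 CPM in whole glands, and Marveld2 32.2 and 26.7 CPM. In folliculostellate-like cells Ocln had 25.2 CPM in the anterior library and 22.8 CPM in whole glands, lower than in pituicyte-like cells (log2 fold change -1.90, SE 0.15) and higher than in hormone cells by 1.82 (SE 0.16, edgeR quasi-likelihood adjusted p = 1.30e-10). Hormone class means of Ocln were 6.57 and 5.92 CPM. Marveld2 had 6.69 and 7.02 CPM in folliculostellate-like cells, against hormone class means of 5.11 and 5.96 CPM, a log2 difference of 0.05 (SE 0.22, adjusted p = 0.865 in the same test). Marveld2 was lower in folliculostellate- than in pituicyte-like cells (log2 fold change -2.10, SE 0.24), and the groups do not overlap in either gene.

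Macrophage-like cells, an immune class, held 21.7 and 20.5 CPM of Ocln, close to the folliculostellate-like level, with 0.649 and 1.43 CPM of Marveld2. Their Epcam stood at 31.2 and 37.7 CPM. Among hormone classes, Ocln was highest in gonadotroph-like cells at 15.1 and 8.83 CPM and Marveld2 ran between 1.91 and 7.66 CPM, with no difference called.

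Cldn1, a claudin of skin and other tight epithelia, had 70 UMIs in all 19793 cells, with a peak of 13.1 CPM in fibroblast-like cells of dissected glands, from 17 UMIs, against 3.22 CPM from 2 UMIs in whole glands. Folliculostellate-like cells held 1.06 CPM in the anterior library and 0.853 CPM in whole glands.

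Other genes of cell junctions were read from a list of 72 genes, of which 57 were tested. In folliculostellate-like cells 32 were called higher than in hormone cells and 4 lower, or 63.2% called against 34.5% of all genes, with a median log2 fold change of 1.11, against 0.08 over all genes. The most changed with at least 20 CPM in 1 group was Marveld3, the third MARVEL gene of tight junctions, at 89.3 and 76.4 CPM against class means of 0.507 and 0.0972 CPM. It was followed by the tetraspanin gene Cd9 (5.70, SE 0.15), Cgnl1, which encodes paracingulin of the junction plaque (5.20, SE 0.23), Cdh1 (4.91, SE 0.26), the epithelial transcription factor gene Klf5 (3.98, SE 0.20) and Jam2 (3.42, SE 0.19). Of 8 tested genes of epithelial keratins and their regulators, 7 were higher and Esrp1, a splicing regulator of epithelia, was lower. Of 13 plaque and polarity genes 9 were higher, Tjp1 among them, and Crb3 was lower.

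Set against pituicyte-like cells, folliculostellate-like cells had 31 of the 57 higher and 8 lower, or 68.4% called against 29.9% of all genes, with a median of 1.36, against 0.03 over all genes. Marveld3 (7.70, SE 0.30), Dsp, which encodes desmoplakin (5.84, SE 0.49), Cdh1 (5.77, SE 0.51) and Krt8 (4.94, SE 0.23) were higher. On the pituicyte-like side stood further claudins: Cldn11, the claudin of myelin, with 0.586 and 0 CPM in folliculostellate- and 90.3 and 88.9 CPM in pituicyte-like cells, and Cldn2, a pore-forming claudin, with 0.235 and 0.131 against 20.6 and 20 CPM. Cldn19, Ildr2, Jam2, Jam3, Cdh2 and Nectin3 were lower as well.

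In melanotroph-like cells 9 of 57 were higher and 1 lower than in hormone cells, or 17.5% called, near the 15.1% of all genes, with a median of 0.12, against 0.03 over all genes. Jam2 was higher by 4.42 (SE 0.20) and Krt18 by 1.08 (SE 0.14), and Spint1, a protease inhibitor gene, was lower (log2 fold change -1.19, SE 0.17). None of the 9 other claudins tested was called there. In endothelial-like cells 24 were higher and 17 lower, or 71.9% called against 38.6% of all genes, with a median of 1.07, against 0.12 over all genes. Cgnl1 (5.40, SE 0.17), Jam2 (4.19, SE 0.13) and the plakoglobin gene Jup (3.95, SE 0.08) were higher, beside Cdh5 and Esam given above.

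**Figure D5:**
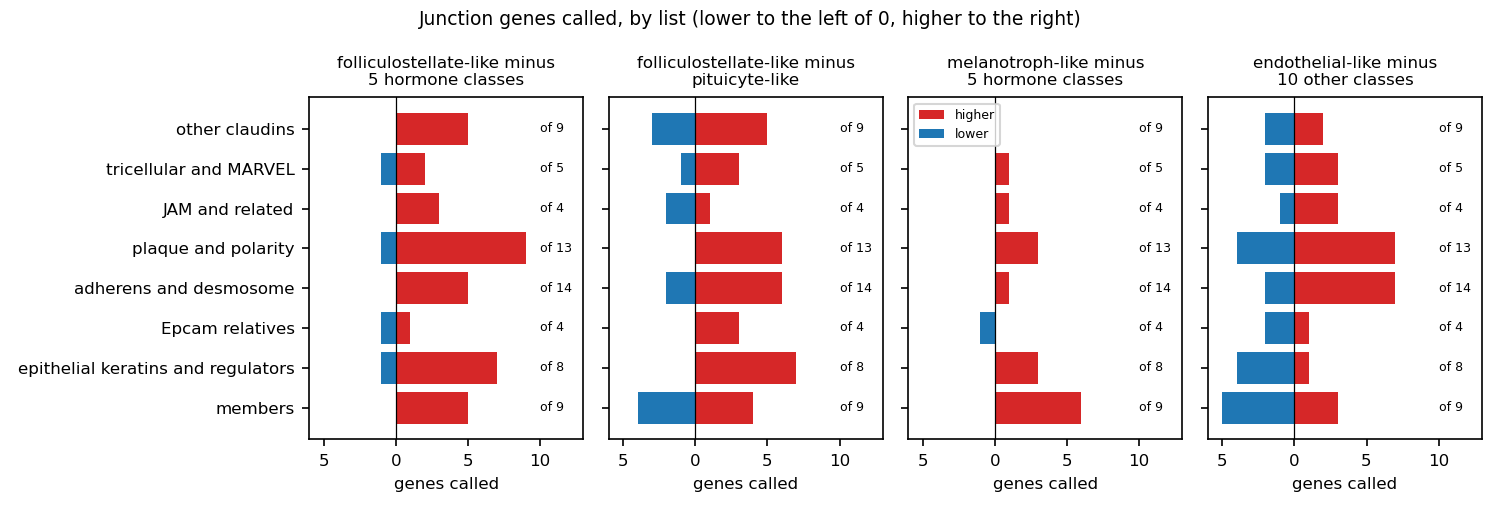
Number of junction genes called lower (blue, left of 0) and higher (red, right of 0) in 4 comparisons, by list, with the number tested at the right of each bar. In folliculostellate-like cells 9 of 13 plaque and polarity genes were higher than in hormone cells, and in melanotroph-like cells 6 of 9 members were higher, of which 3 were called without the anterior library.

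Over the 22 class and preparation sums, the genes whose log2(CPM + 1) followed a member most closely are given here for 7 members. Epcam was followed by Tmie, Rpl39l and Pitx1, a transcription factor gene of the oral ectoderm and pituitary, with Pearson's r of 0.965, 0.960 and 0.949. Cldn10 was followed by Car13, a carbonic anhydrase gene, Hepacam, a glial adhesion gene, and Maob, with r of 0.977, 0.972 and 0.971. Cldn3 was closest to Plppr4 (r = 0.914), Cldn4 to Chst8 (0.908), Cldn7 to Calb1 (0.869), Ocln to Scp2 (0.863) and Marveld2 to Smim19 (0.934). Between members, Epcam correlated with Cldn4 at 0.88 and with Cldn3 at 0.86, and Cldn10 with Cldn5 at 0.79 and with Epcam at -0.57. The 22 sums share 2 preparations and 11 classes and differ in depth, so these values describe the pattern and carry no p.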

How the data were processed

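The authors deposited 1 matrix of counts, whole UMI counts per gene and barcode of the 4 aggregated libraries, made with Cell Ranger 3.1 per the submitters' processing notes. Other than counts, the deposited barcodes were used, whose endings name the library per the labels. Genome build, annotation and any equalizing of depth are not given in the sources used here. Barcodes were kept when they had at least 1000 UMIs, at least 500 genes and no more than 20% mitochondrial UMIs (20381), and 588 with a Scrublet score above 0.25 were left out. Clusters were made with scanpy 1.11.5 (2000 variable genes, 30 components, 15 neighbors, Leiden resolution 1.0, and 0.3 within folliculostellate-like cells) and named from marker lists. The members and the junction list were left out of the clustering at both resolutions. Sums of UMIs per class and preparation were made for the 11 classes with at least 50 cells in each, and tested with the edgeR 4.0.16 quasi-likelihood test (TMM, filterByExpr, terms for class and preparation, 10 residual degrees of freedom, Benjamini-Hochberg adjustment over 14716 genes). The thyrotroph-like sum of dissected glands held 47 anterior cells. DESeq2 1.42.0 and 14 other settings were alternatives. The test was checked on simulated data. Some results are not reported here. Intervals are exact Poisson or binomial ones at 95% and cover counting error only. The junction genes named were the called ones with the largest change and at least 20 CPM in 1 group, at most 6 per comparison, and for likeness the 3 genes with the highest r. The members, lists and markers were chosen with earlier results of these data known. Preparation was a block in the fit because classes of 1 preparation share their glands.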

Additional observations from a re-analysis of the deposited data

Results flagged for a closer look

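Cldn7 stood in opposite directions in the libraries of the 2 lobes: the log2 ratio of folliculostellate-like cells to the mean of the 5 hormone classes was 1.58 in the posterior and -0.95 in the anterior library. Folliculostellate-like cells had 31.3 CPM (124 UMIs) in the posterior and 4.46 CPM (38 UMIs) in the anterior library, against hormone class means of 10.5 and 8.63 CPM. Of the posterior Cldn7 UMIs, 117 lay in the Krt17 sub-cluster, where 5 of 93 cells held 62.4% of them. The anterior direction depends on how hormone cells are averaged: against their pooled UMIs the anterior ratio was 1.8 (counting interval 1.22 to 2.59), and the fitted log2 difference over both preparations was 0.88. With 1 library for each lobe, this difference was not tested.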

How the results depend on the processing

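Each of the 5 comparisons was recomputed under 15 alternatives, of which leaving out the shallow folliculostellate-like sub-cluster with pituicyte genes was chosen after seeing the data. Of 670 values of single members, 627 kept their direction and side of the threshold. With preparation left out as a replicate block the members called were 5 in folliculostellate-like against hormone cells, 8 against pituicyte-like cells, 8 in endothelial-like cells, 6 in melanotroph-like cells and 6 among hormone classes, as with the block. Leaving out 1 library at a time gave 5 to 7, 7 to 8, 6 to 8, 3 to 7 and 4 to 7 members in the same order, the 3 being without the anterior library. With dissected sums over both libraries the counts were 8 against hormone cells and 3 in melanotroph-like cells. Shares of all genes called under these alternatives are not given here, so the counts of members have no background beside them. Marveld2 against hormone cells reversed to -0.01 without the anterior library and with sums over both libraries, to -0.16 with classes and sums from separate parts of the UMIs and to -0.02 without the hormone-rich sub-cluster. Against pituicyte-like cells F11r reversed to 0.01 without the anterior library and Cldn5 to 0.02 at a mitochondrial limit of 15%. In melanotroph-like cells Cldn10 reversed to -3.09 without the posterior library, and Epcam to 0.01 with median-of-ratios size factors, to 0.01 without lane 1 and to 0.06 with separate parts of the UMIs. Over the libraries left out in turn these values ranged between -0.01 and 0.19 for Marveld2, between -1.16 and 0.01 for F11r, between -3.09 and 5.03 for Cldn10 and between -0.08 and 0.01 for Epcam. The cause was not tested. The number of preparations (2), pooled animals and few UMIs of Cldn1, Cldn5 and Cldn7 limit the precision.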

Other observations

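Schwann-like cells (83 cells, with Sox10; too few in whole glands for the tests) had the highest Cldn5 level of any class, at 156 CPM in the posterior library and 228 CPM in whole glands. All 69 of their Cldn5 UMIs lay in 5 cells, with 33, 14, 11, 10 and 1 UMIs. The 4 cells with at least 10 UMIs came from 3 libraries, held between 4937 and 10072 UMIs each and had Scrublet scores of at most 0.0958. Chosen by their Cldn5 and described with no test, they held 2810 CPM of Fabp7, a glial fatty acid binding protein gene picked after its values were seen, against 210 CPM in the other 79 Schwann-like cells. Of the endothelial markers Plvap, Emcn, Flt1, Kdr and Egfl7, these 4 cells held 1 UMI in all, of Kdr.

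The dividing cluster (190 cells of several classes) had 67.7 CPM of Cldn3 in the anterior and 103 CPM in the posterior library and 112 and 120 CPM in lanes 1 and 2, above lactotroph-like cells in each library, while its Cldn4 level was between 0.853 and 6.16 CPM. Prl filled 256231 CPM of this cluster, against between 445650 and 502996 CPM of the lactotroph-like clusters. The lower share of Prl raises the CPM of other genes in the dividing cluster, and its part in the Cldn3 difference was not tested.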
